A study of Mus musculus with 6 samples.

Results

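The miR-297, miR-466, miR-467 and miR-669 families are repeat-derived miRNAs of rodents, and most of their mouse genes lie inside the imprinted gene Sfmbt2. On cards A and B of the TaqMan rodent miRNA array, which measures each miRNA by real-time PCR, 31 of the 750 miRNA assays carried 1 of these numbers and formed the group described here. They were chosen by name alone, with any letter, arm or species prefix, and names that end in #, the mark of a passenger strand on these cards, were left out. The group held 2 assays of miR-297, 10 of miR-466, 9 of miR-467 and 10 of miR-669. Card A held 11 of them and card B held 20, and 29 had a mouse name and 2 a rat name. Total RNA came from 3 vitrified pools (V1, V2 and V3) and from 3 fresh ones (F1, F2 and F3), all made of blastocysts of 5-week-old Kunming mice that were superovulated with eCG and hCG and mated. By the sample labels, embryos of both groups were cultured in CZB medium. The vitrified embryos had in addition been exposed to a pretreatment solution of ethylene glycol and DMSO for 30 seconds, loaded into an open-pulled straw with EDFS30 (ethylene glycol and DMSO in Ficoll and sucrose) for 25 seconds, plunged into liquid nitrogen and thawed in sucrose. Each pool combined many whole embryos, so differences among embryos, and between the inner cell mass and the trophectoderm, were not measured. In such pools, fewer cells that express a miRNA and less of it per cell cannot be told apart.

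A miRNA guides an Argonaute protein to mRNAs that pair with its seed, bases 2 to 8 of the mature strand, and lowers their translation or stability. Sfmbt2 codes for a Polycomb-group protein and is expressed from the paternal allele in the extraembryonic lineage, and the large miRNA cluster in its intron is found in rodents and is best known from trophoblast and placenta. The outer layer of the blastocyst, the trophectoderm, is the first trophoblast of the embryo.

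The group was first set against the RefSeq annotation of GRCm38.p6, which lists 82 miRNA genes with these numbers. Of these genes, 72 lay inside Sfmbt2, spread over 51.5 kb, and 10 lay elsewhere. The repeat unit was visible in the miR-467a genes, of which there were 10, with a median gap of 2.46 kb between neighbours (range 2.41 to 4.88 kb). Of the 31 assays, 23 carried a name whose genes were all inside Sfmbt2. The annotation placed the other 5 mouse names with a matching gene outside it, namely mmu-miR-466J, mmu-miR-466k, mmu-miR-467F, mmu-miR-467H and mmu-miR-669n. The label of an Sfmbt2 cluster thus did not hold for these 5, and main counts are also given split by gene position. Of the remaining 3 assays, rno-miR-466b and rno-miR-466c carried rat names, and mmu-miR-466a-3p had no gene with its letter. Some names stood for many near-identical genes, 12 for miR-669a, 10 for miR-467a and 8 for miR-466b, so an assay of such a name cannot tell its copies apart.

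**Figure D1:**
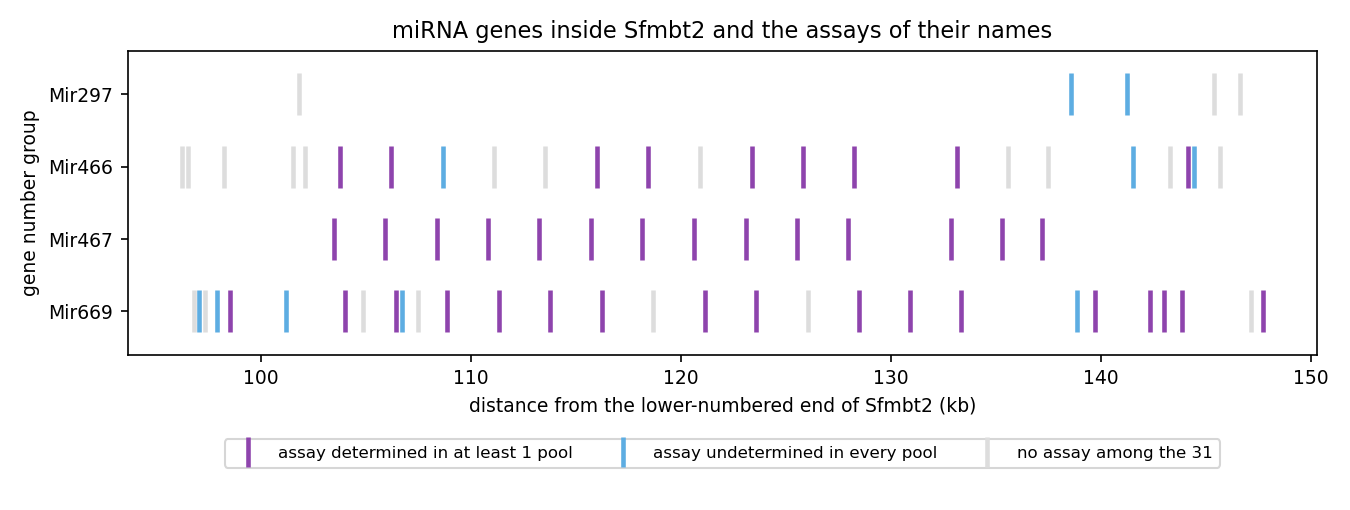
Positions of the 72 miRNA genes of the 4 numbers inside Sfmbt2, as the distance in kb from the lower-numbered end of the gene, with a row for each number and a colour for what the assay of the same name showed. Purple genes (assay determined in at least 1 pool) recur along the array in the Mir466, Mir467 and Mir669 rows, all Mir467 genes inside Sfmbt2 are purple, and no Mir297 gene is.

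RefSeq mature sequences were matched by name for 5 of the assays, which are the 5 whose genes lie outside Sfmbt2. They are shown because 4 of them were determined in all 4 pools numbered 2 and 3. No sequence was matched for a name inside Sfmbt2, so they do not show what those members share. The capitals mark the seed, and the build is GRCm38.p6.
mmu-miR-467F (chr11:69635419-69635439, minus strand): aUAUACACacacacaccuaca
mmu-miR-466k (chr3:85467396-85467418, plus strand): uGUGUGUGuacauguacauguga
mmu-miR-466J (chr10:60960802-60960824, plus strand): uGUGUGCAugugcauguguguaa
mmu-miR-669n (chr3:115979905-115979924, plus strand): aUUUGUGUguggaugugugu
mmu-miR-467H (chr9:115381898-115381919, plus strand): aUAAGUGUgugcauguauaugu
The 5 seeds were all different. The sequences of mmu-miR-466k, mmu-miR-466J, mmu-miR-669n and mmu-miR-467H were rich in G and U, which in any order made up 69.6%, 73.9%, 90.0% and 68.2% of their bases. The sequence of mmu-miR-467F was of the opposite kind, with 85.7% A and C and an unbroken AC repeat of 12 bases, against alternating runs of 7 to 9 bases in the others. By position, without regard to strand, Mir669n lay inside the protein-coding gene Slc30a7 and Mir467f inside Fxr2. The other 3 lay in no protein-coding gene of the annotation. An assay of a repeat family may also have read a related miRNA, and this was not tested.

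The pools numbered 1 stood apart from the rest over the whole cards. A threshold cycle (Ct), the PCR cycle at which the fluorescence of a well crosses a set threshold, was determined under 40 cycles for 29.1% of the 750 miRNA assays in V1 and 18.7% in F1, against 50.9% to 54.5% in the other 4 pools. Levels are given as ΔCt, obtained by subtracting from each Ct the mean of the 4 U6 snRNA wells on the same card and in the same pool, where a lower ΔCt of an assay means more template for it. Of 16 assays of the miR-290 to miR-295 cluster, which is abundant in the early mouse embryo, 0 were determined in V1 and in F1, and 8 to 10 in each of the others. Where they were determined, their ΔCt ranged from 6.07 to 18.35, with the card A assay of mmu-miR-292-3p the lowest in each pool (6.07 to 8.37). Of the markers of other tissues, miR-451 of red blood cells had a ΔCt of 15.27 in V1, was undetermined in F1, and lay between 4.94 and 6.58 in the pools numbered 2 and 3. Of 6 assays of the muscle miRNAs miR-1, miR-133 and miR-206, 2 were determined in V1, 3 in F1 and 5 or 6 in the other pools. The lowest ΔCt among them belonged to mmu-miR-133a, at 12.41 in V1, 13.27 in F1 and 6.05 to 8.53 in the others, whereas hsa-miR-206 lay between 13.56 and 15.90 in all 6 pools, with V1 and F1 at 15.41 and 15.90. The liver miRNA miR-122 was determined in V3 and F2 only, at 15.91 and 16.26. The part of these differences in the results below was not tested, and values are therefore given for all pools and for the pools numbered 2 and 3.

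Of the 31 repeat-cluster assays, 18 were determined in at least 1 pool and 13 in none. Over all 750 miRNA assays, 490 were determined in at least 1 pool. The miR-467 assays were found most often, 8 of 9, followed by 6 of 10 for miR-669, 4 of 10 for miR-466 and 0 of 2 for miR-297. The undetermined assays were mmu-miR-297b-5p and mmu-miR-297c, then rno-miR-466b, rno-miR-466c, mmu-miR-466a-3p, mmu-miR-466d-5p, mmu-miR-466E-5P and mmu-miR-466h, then mmu-miR-467H, and then mmu-miR-669C, mmu-miR-669D, mmu-miR-669E and mmu-miR-669G. A Ct of 40 corresponds to a ΔCt of 22.18 to 23.48 depending on card and pool. Whether these 13 assays, 2 of them with rat names, can read their miRNA in mouse RNA was not tested, so an undetermined well sets no bound on the level. By gene position, 14 of the 23 assays of names inside Sfmbt2 and 4 of the 5 outside it were determined at least once.

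The vitrified pools V1, V2 and V3 held 6, 10 and 13 determined repeat-cluster assays, and the fresh pools F1, F2 and F3 held 2, 15 and 17. F1 held the fewest and F2 and F3 the most, so the fresh pools spanned the whole range of the vitrified ones. Over wells, 29 of 93 were determined in vitrified and 34 of 93 in fresh pools. The share in V2 was 32.3%, against 50.9% of all 750 miRNA assays in the same pool, and in F3 it was 54.8%, against 54.0% of all. In V1 the repeat-cluster share was 19.4% against 29.1% of all, and in F1 it was 6.5% against 18.7%. The repeat cluster thus lay below all assays in 5 of the 6 pools, with F3 as the exception. The assays of names inside Sfmbt2 numbered 6 and 9 in V2 and V3, and 11 and 13 in F2 and F3, whereas the same 4 assays outside Sfmbt2 were determined in each of these 4 pools. With a Ct under 35 required, the counts over all 31 assays were 1, 10 and 13 in V1, V2 and V3 and 1, 14 and 15 in F1, F2 and F3.

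**Figure D2:**
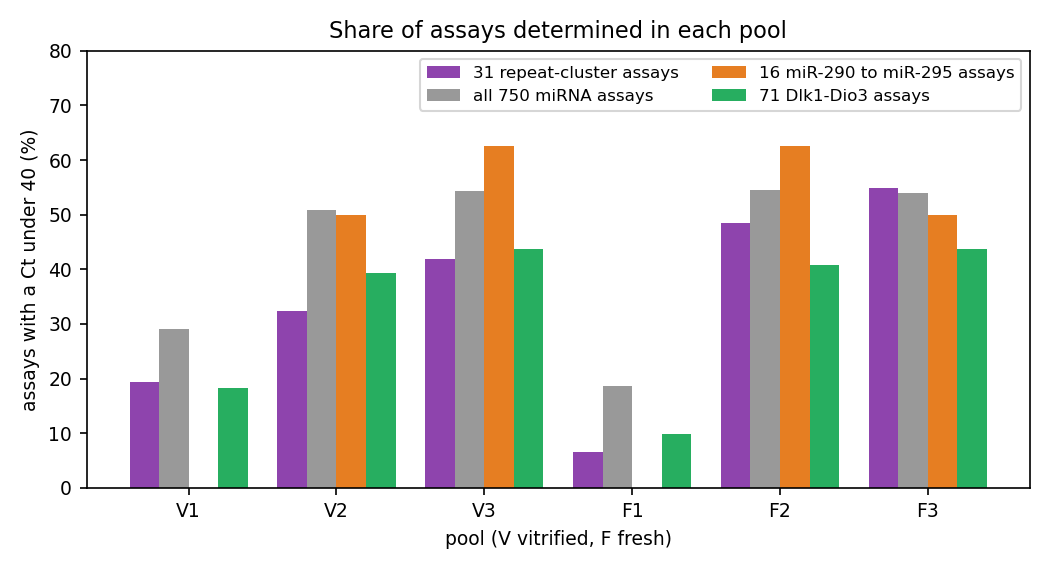
Share of assays with a Ct under 40 in each pool (percent, 1 bar per pool and assay set), for the 31 repeat-cluster assays, all 750 miRNA assays, the 16 assays of the miR-290 to miR-295 cluster and 71 assays of the imprinted Dlk1-Dio3 cluster. All 4 sets are lowest in V1 and F1, and the fresh pools of the repeat cluster span 6.5% (F1) to 54.8% (F3).

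Levels were compared over the pools numbered 2 and 3, in which 10 of the 31 assays had a Ct in all 4 pools. Each TaqMan assay has its own efficiency, so an order between assays is a description of these wells. The card B assay of mmu-miR-467a, a member with many gene copies inside Sfmbt2, had the lowest Ct of the group in V2, F2 and F3, and mmu-miR-467F had the lowest in V3. Its Ct was 24.73 in V2 and 26.02 in V3, 24.54 in F2 and 24.55 in F3, and it was undetermined in V1 and F1. By ΔCt it stood at position 19 of 170 determined miRNA assays of card B in V2, 29 of 173 in V3, 17 of 170 in F2 and 21 of 176 in F3, where position 1 has the lowest ΔCt. It was thus near the top of the card in all 4 pools.

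Next in order was mmu-miR-467F, whose gene lies in Fxr2. Its Ct was 26.03 in V2, 25.16 in V3, 25.44 in F2 and 26.18 in F3. With an SD of 0.30 over the 4 values of ΔCt it was the steadiest of the 10 assays, and the mean ΔCt was 8.62, against 7.88 for the card B assay of mmu-miR-467a. The ΔCt ranges of these 2 assays overlapped. The card B assay of mmu-miR-467b was the third, with a ΔCt between 10.51 and 11.31, which overlapped with neither neighbour. The card A assay of mmu-miR-467a was the fourth, between 11.64 and 13.03. The other 6 (mmu-miR-466k, mmu-miR-669n, mmu-miR-466J, mmu-miR-466g, mmu-miR-467e and mmu-miR-467c) had mean ΔCt values from 13.61 to 14.71, and each overlapped with its neighbours in the order. The median of the 10 means was 13.63 (13.31 for 6 assays inside Sfmbt2 and 13.63 for 4 outside), against 10.99 for the 326 miRNA assays determined in these 4 pools, 11.07 for 8 assays of the miR-290 to miR-295 cluster and 14.09 for 22 assays of the Dlk1-Dio3 cluster.

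Gene copies and levels were set side by side for the 3 names with the most genes. Whereas mmu-miR-467a led the order, mmu-miR-669a, with 12 genes, was determined in V3 at a Ct of 31.67, in F2 at 31.85 and in F3 at 31.83, and mmu-miR-466b-3-3p, with 8 genes of its letter, in V3 at 32.72, in F2 at 35.02 and in F3 at 33.44. Both were undetermined in V1, V2 and F1. Of the names with a single gene, mmu-miR-467F and the card B assay of mmu-miR-467b came next after mmu-miR-467a in the order. Some other names with a single gene, such as mmu-miR-466k and mmu-miR-467c, were determined at higher ΔCt. Undetermined throughout were mmu-miR-297b-5p, mmu-miR-297c, mmu-miR-466d-5p, mmu-miR-466E-5P, mmu-miR-466h, mmu-miR-467H, mmu-miR-669C, mmu-miR-669E and mmu-miR-669G, each with a single gene.

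**Figure D3:**
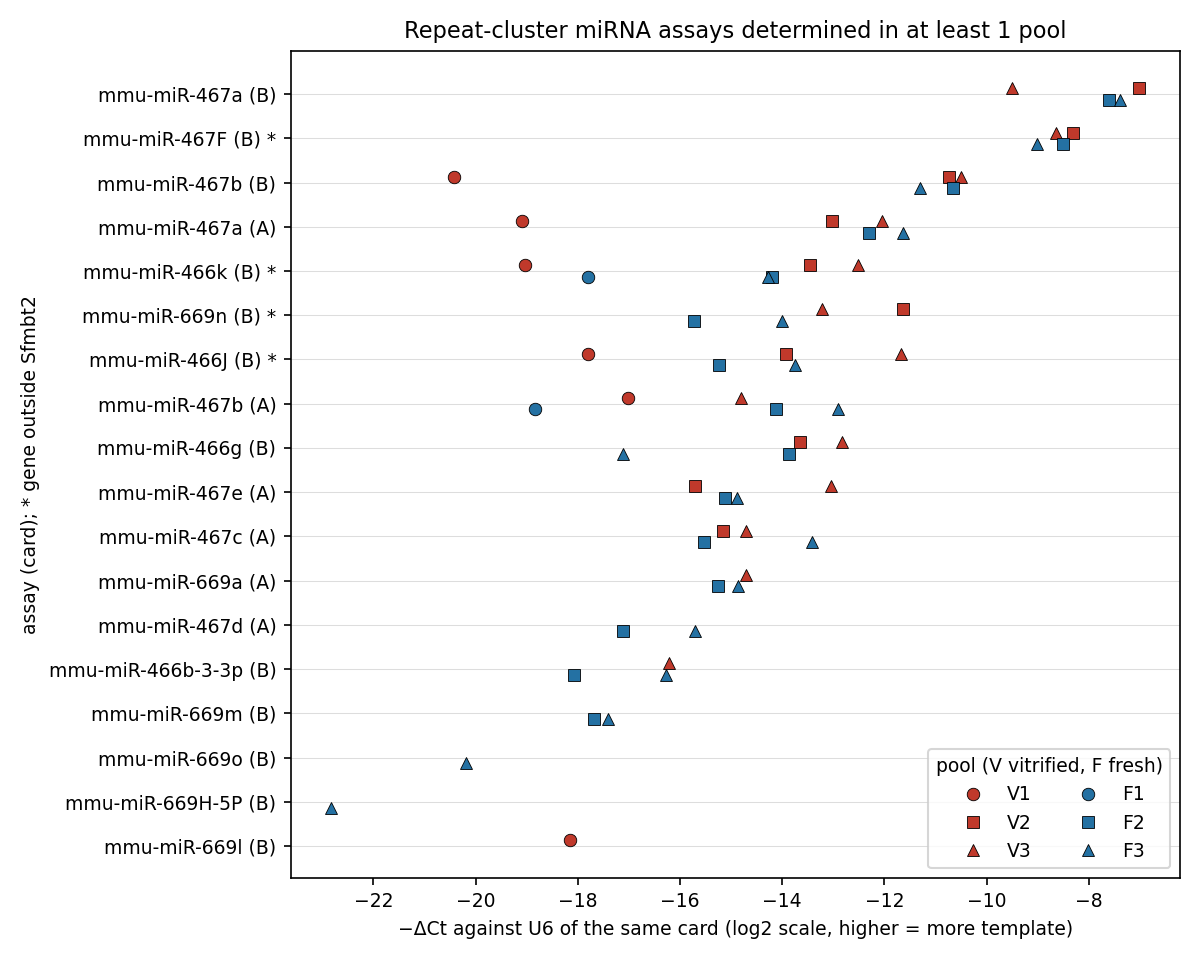
Levels of the 18 repeat-cluster assays determined in at least 1 pool, as −ΔCt on the log2 scale, with 1 symbol per pool (red vitrified, blue fresh, shapes for the pool numbers) and the assays ordered by their mean over the determined wells of the pools numbered 2 and 3. The card B assay of mmu-miR-467a and mmu-miR-467F are at the top, and the circles of V1 and F1 lie far to the left of the other symbols of the same assay. Red and blue symbols overlap for most of the assays determined in both groups.

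The comparison asked whether these miRNAs differed between vitrified and fresh pools. The steps of vitrification (solutions, cooling and thawing) cannot be told apart in this design. The paper scored survival of the vitrified embryos hours after warming and does not state when RNA was taken. Time after warming and any choice of surviving embryos are therefore not separated from these steps either. Of the 31 assays, 11 had at least 2 determined wells in each group and entered the limma comparison of 335 miRNA assays. None of the 11 passed the test. With limma and Benjamini-Hochberg adjustment over the 335 assays, the adjusted p-value fell under 0.05 for 0 of the 11 and for 0.0% of all tested assays, and the unadjusted p-value did so for 0 of the 11 and for 0.299% of all. The log2 change was above 0, higher in vitrified pools, for 6 of the 11 and below 0 for 5, and the median was 0.03, against a median of −0.05 and a share above 0 of 48.1% over all 335. Of the 7 tested assays inside Sfmbt2, 2 were above 0 and 5 below (median −0.62), and of the 4 outside it, 4 were above 0 (median 0.35). In the pools numbered 2 and 3 these counts were 3 above and 3 below inside Sfmbt2 (median −0.05) and 4 above outside it (median 1.47). Outside Sfmbt2, 2 of the 4 were above 0 with the other small RNA controls as the reference, 3 of 4 without a reference or without F1, and 0 of 2 without V2 or without V3. The difference between both positions was not tested. Every assay of the group had an adjusted p of 0.998. The spread between pools was wide in this fit, with standard errors of the log2 change from 1.14 for mmu-miR-467F to 3.31 for mmu-miR-467b on card B. Changes of several fold could not be told from this spread. With the pool number as a replicate block the standard errors ran from 0.88 for mmu-miR-466k to 1.32 for mmu-miR-466g. The adjusted p from limma was then 0.989 for each of the 11. Among the pools numbered 2 and 3, the median over 10 assays was 0.50, against −0.02 over 326.

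The smallest unadjusted p-value belonged to mmu-miR-669n, a GU-rich miRNA whose gene lies by position inside Slc30a7. Its Ct was 29.35 in V2 and 29.74 in V3, 32.66 in F2 and 31.16 in F3, and it was undetermined in V1 and F1. Both vitrified values lay below both fresh values, on raw Ct and on ΔCt. The vitrified pools had a ΔCt of 12.42 ± 1.12 (SD, n = 2), the fresh pools one of 14.86 ± 1.22 (SD, n = 2), and limma gave a log2 change of 2.43 (standard error 1.37, adjusted p = 0.998). The exact permutation test gave p = 0.333, the smallest that 2 against 2 allow. Between pools of the same number the difference was 4.09 for number 2 and 0.78 for number 3. In the fit of the pools numbered 2 and 3 alone the unadjusted p was 0.046 and the adjusted p from limma 0.867, where 4.91% of the 326 assays had an unadjusted p under 0.05 (3.68% with the change above 0). It was also the member with an unadjusted p under 0.05 when U6 was replaced by a global mean, taken over the miRNA assays with a Ct in each of the 6 pools, where the share was 0.896% of 335 (0.597% with the change above 0).

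The assay next in order was mmu-miR-466g, whose gene lies inside Sfmbt2. Its Ct was 31.36 in V2, 29.34 in V3, 30.81 in F2 and 34.27 in F3. On raw Ct the groups overlapped, and after subtraction of U6 they did not, with a ΔCt of 13.64 and 12.82 against 13.87 and 17.11. By limma the log2 change was 2.26 (standard error 1.59, adjusted p = 0.998), and it rested on F3, since the pools numbered 2 differed by 0.23 and those numbered 3 by 4.29. Of the 11 tested assays, these 2 had groups that did not overlap, both higher in vitrified pools, where 10.1% of all 335 tested assays did so in that direction and 5.07% in the other. In the pools numbered 2 and 3, 3 of 10 did not overlap and were higher (mmu-miR-466k in addition), beside 18.1% of 326 assays.

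The assay of mmu-miR-466k was the member with a Ct in all 6 pools. The wells of V1, V2 and V3 crossed at 36.70, 31.17 and 29.03 cycles, and those of F1, F2 and F3 at 34.69, 31.13 and 31.44. The latest wells of both groups were those of the pools numbered 1. The vitrified pools had a ΔCt of 15.00 ± 3.53 (SD, n = 3) and the fresh pools one of 15.43 ± 2.06 (SD, n = 3). By limma the log2 change was 0.42 (standard error 2.02, adjusted p = 0.998), and the exact permutation test gave p = 0.8, with 0.1 the smallest possible. It was −1.24 between V1 and F1, 0.73 between V2 and F2 and 1.77 between V3 and F3. The related mmu-miR-466J, determined in all pools but F1, crossed at 35.45, 31.64 and 28.20 cycles in the vitrified pools and at 32.18 and 30.90 in F2 and F3. Its log2 change was 0.03 over these wells and 1.69 in the pools numbered 2 and 3 (standard error 1.02, adjusted p = 0.883 from limma).

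Of the 6 tested miR-467 assays inside Sfmbt2, 5 had a log2 change below 0 and 1, mmu-miR-467e, above 0 (median −0.70), and none passed the test. All 6 were below 0 with the other small RNA controls as the reference, whereas in the pools numbered 2 and 3 these counts were 3 below and 2 above, of 5 tested (median −0.45). The card A assay of mmu-miR-467a had a Ct of 36.91, 30.13 and 29.01 in the vitrified pools V1 to V3, and of 28.90 in F2 and 28.60 in F3, with F1 undetermined. By limma the log2 change was −2.75 (standard error 2.34, adjusted p = 0.998), and without V1 it was −0.56. The card B assay of mmu-miR-467b had a Ct of 38.07 in V1, 28.45 in V2, 27.02 in V3, 27.60 in F2 and 28.47 in F3, again with F1 undetermined. Its log2 change was −2.90 with V1 and 0.36 without it, and it was 0.36 also with the pool number as a replicate block. The direction of this assay thus changed when V1 was left out. The log2 change was also above 0, at 1.14, with V1 kept and undetermined wells, here that of F1, set to 40 cycles.

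The assays of mmu-miR-467a on card B, mmu-miR-467c, mmu-miR-467e and mmu-miR-467F rested on the pools numbered 2 and 3 alone, and their log2 changes of −0.77, −0.45, 0.63 and 0.28 were each smaller than their standard errors (1.41, 1.34, 1.44 and 1.14). The Ct of mmu-miR-467c was 32.26 and 31.67 in V2 and V3, and 32.12 and 30.38 in F2 and F3. That of mmu-miR-467e was 32.80 and 30.02 in the same vitrified pools, and 31.70 and 31.84 in the fresh ones. In both, the vitrified and the fresh values overlapped. The card A assay of mmu-miR-467b was determined in 5 pools, at 34.84 in V1, 31.77 in V3, 35.93 in F1, 30.71 in F2 and 29.87 in F3, and undetermined in V2. The log2 change was −0.62 (standard error 2.08), and V1 was above F1 by 1.83 whereas V3 differed from F3 by −1.89.

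**Figure D4:**
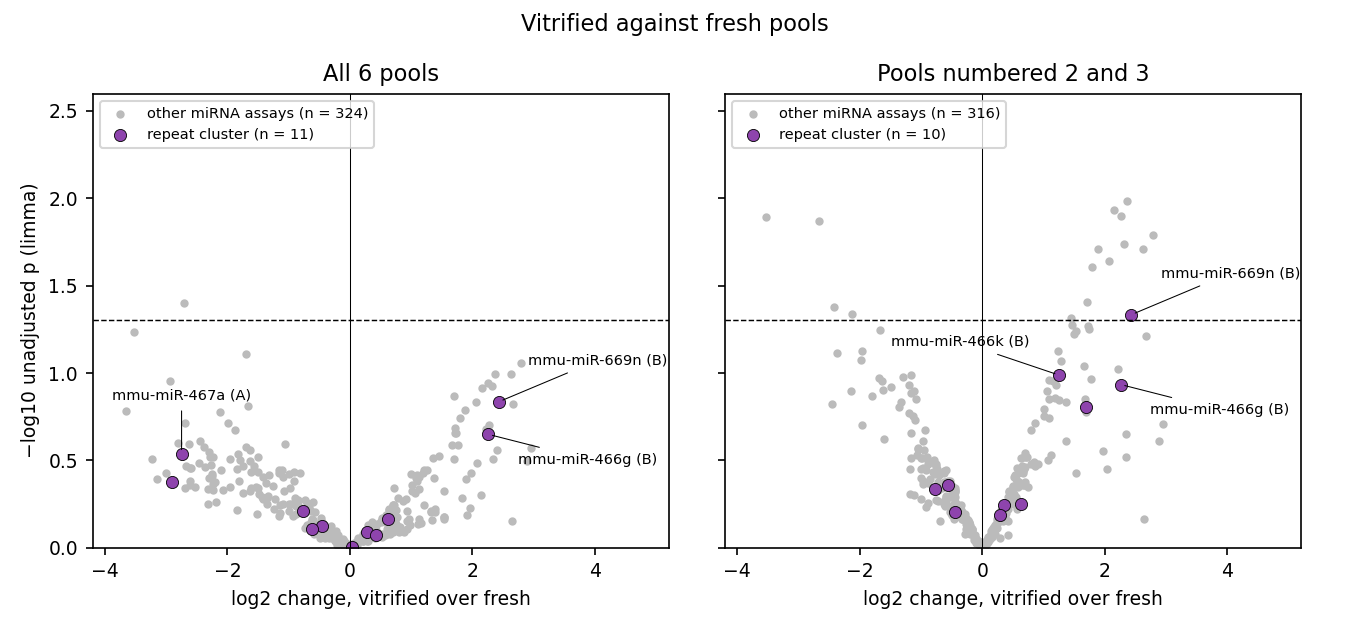
Log2 change of vitrified over fresh pools (x axis) against −log10 of the unadjusted p of limma (y axis) for all tested miRNA assays, with the repeat-cluster assays in purple, in all 6 pools (left) and in the pools numbered 2 and 3 (right). The dashed line marks an unadjusted p-value of 0.05, which no repeat-cluster assay passes on the left and mmu-miR-669n passes on the right.

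A further 7 assays were determined too rarely for the comparison. Of these, mmu-miR-467d and mmu-miR-669m, both from genes inside Sfmbt2, were determined in F2 and F3 and in no vitrified pool. The Ct of mmu-miR-467d was 33.71 in F2 and 32.66 in F3, and that of mmu-miR-669m was 34.63 and 34.58. F1 was undetermined for both, like the vitrified pools. Such a pattern, at least 2 fresh pools and no vitrified pool, was found for 2 of the 31 assays and for 1.07% of all 750 (8 assays). The opposite pattern was found for 0 of the 31 and for 0.667% of all 750. No fold change is given where a group has no Ct.

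The other 5 of these assays were mmu-miR-669a and mmu-miR-466b-3-3p, given above, and 3 with a single Ct. The assay of mmu-miR-669l was determined in V1 only, at 35.81, mmu-miR-669o in F3 only, at 37.35, and mmu-miR-669H-5P in F3 only, at 39.99. These 3 wells were all later than 35 cycles. For mmu-miR-669a the 1 vitrified value, a ΔCt of 14.70, lay next to the fresh values of 15.27 and 14.87, and for mmu-miR-466b-3-3p the vitrified value of 16.21 lay below the fresh values of 18.08 in F2 and 16.27 in F3.

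The names mmu-miR-467a and mmu-miR-467b each stand for an assay on card A and another on card B, with different assay numbers, and the deposited names do not say which arm of the hairpin each reads. In the pools numbered 2 and 3 the ΔCt of mmu-miR-467a was higher on card A than on card B by 6.02 in V2, 2.54 in V3, 4.71 in F2 and 4.25 in F3. These are different assays, so the gap may lie in their efficiency as well as in the template, which cannot be told apart here. For mmu-miR-467b the card A assay was higher by 4.30 in V3, 3.46 in F2 and 1.60 in F3, whereas in V1, where both assays crossed late, its ΔCt was 17.02 against 20.42 on card B.

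V1 and F1 were later than their groups over all assays as well. Of the 10 repeat-cluster assays determined in both V2 and V3, 4 had a Ct in V1, with a ΔCt that was 4.99 to 9.79 cycles higher than the mean of V2 and V3 (median 6.30). Over all assays, 196 of 342 were determined and the median was 4.08. Of the 15 repeat-cluster assays determined in both F2 and F3, 2 had a Ct in F1, at 3.57 and 5.33 cycles higher. The median over all assays compared was 4.18. Of the miRNA assays outside the group that were determined in both F2 and F3, 131 of 355 had a Ct in F1. For the miR-290 to miR-295 cluster these counts were 0 of 8 in V1 and 0 of 8 in F1, and for the Dlk1-Dio3 cluster 11 of 25 and 7 of 27.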

How the data were processed

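Starting from 30 ng of total RNA of each pool, extracted with the RNeasy Mini kit, the authors made and pre-amplified cDNA, ran both TaqMan cards and deposited raw Ct values from RQ Manager, not normalized, with undetermined wells marked. A higher Ct, by 1 on this log2 scale, means 2 times less template at full efficiency. A second deposited file holds the authors' own fold changes and was not used. Here, wells at 40 cycles or later were excluded, the mean of the 4 U6 wells of the same card and pool was subtracted, and −ΔCt was compared by limma 3.58.1 (lmFit, eBayes; R 4.3.3) over the 335 miRNA assays with at least 2 determined wells per group, with Benjamini-Hochberg adjustment. Single assays were compared by 2-sided exact permutation tests over pools. Simulated data were used to test the script of this step. Other steps used Python with pandas 2.3.3. Pools are numbered as in the sample labels, and the study's methods describe RNA extracted from each pool. P-values measure the spread between these pools. No pair of pools of a group shared an identical Ct. Same-numbered pools deviated together from their group means over 122 assays (correlations 0.80, 0.78 and 0.67), and the pool number was used as a block in an alternative. Deviations of 3 pools sum to 0, so these values are not independent. Sequences, gene names and positions are from RefSeq tables of GRCm38.p6, because the deposited Ct values name no build. RefSeq gene names were matched by number and letter. The members and lists were chosen with earlier results of these data known. Named in full are assays determined in all 6 pools, the 5 smallest p-values, assays determined in at least 2 pools of 1 group and none of the other, undetermined assays, and names on both cards. The other determined members were added to these after their values were seen. Precision is limited by the 3 pools per group.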

Additional observations from a re-analysis of the deposited data

Results flagged for a closer look

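An assay with a passenger-strand name, mmu-miR-467e# on card B, lay outside the comparison. It was determined in V3 at a Ct of 32.66, a ΔCt of 16.15, and undetermined in the other 5 pools, V1 and V2 included. Over all 750 miRNA assays, 64 were determined in 1 pool only. Passenger-strand names were flagged where the lowest ΔCt was that of a vitrified pool, so the direction was set by this choice. The other passenger-strand name of these numbers, mmu-miR-297a#, was determined at 34.17 in V2, 33.54 in F2 and 33.19 in F3.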

How the results depend on the processing

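Adjusted p-values under 0.05 numbered 0, among the repeat-cluster assays and over all, in each alternative run: another reference, wells kept only under 35 cycles, a value of 40 or 35 for undetermined wells, assays determined in all 6 pools, the pool number as a replicate block, each pool left out, the pools numbered 2 and 3, the methods' unmoderated comparison, and limma with its trend and robust options. Unadjusted p-values under 0.05 numbered 0 or 1 among the repeat-cluster assays and 0 to 16 over all, with 9 of 335 in the methods' unmoderated comparison. The median log2 change of the repeat cluster was 0.03, between −0.96 and 0.56 in the alternatives that kept all pools (0.36 with the replicate block), and between −2.73 (without V3, 4 assays) and 0.78 (without F3, 2 assays) with a pool left out. With the mean of the other small RNA controls in place of U6 the median over all assays moved from −0.05 to −0.78, and with undetermined wells set to 40 or 35 cycles to 0.55 and 0.44. The share of assays higher in vitrified pools was 24.2%, 66.5% and 69.0% under these 3 settings, and 40.0% without a reference.

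Of 110 single-assay values with all or both numbered pools, 100 kept their direction and 10 turned. Among the 110 are those of the unmoderated comparison and of the trend and robust options. These settings leave the log2 change as it is, so they could turn no direction. Assays with wells in the pools numbered 2 and 3 alone also had the same value with the replicate block and in those pools. Of 34 values with a pool left out, 7 turned. With the other small RNA controls as the reference the log2 change was −0.19 for mmu-miR-467e, −0.51 for mmu-miR-467F and −0.96 for mmu-miR-466k, and without a reference it was −0.22 for mmu-miR-466J. With undetermined wells set to 40 cycles it was 0.90 for mmu-miR-467a on card A. For mmu-miR-467b on card B it was 0.36 with a limit of 35 cycles, with the replicate block and in the pools numbered 2 and 3, 1.14 with undetermined wells set to 40 and 0.50 with those and later wells set to 35. With a pool left out, values ranged from −1.36 to 1.69 for mmu-miR-466J, −0.82 to 2.44 for mmu-miR-466k, −2.40 to 0.57 for mmu-miR-467b on card A and −4.59 to 0.36 for mmu-miR-467b on card B. The replicate block changed no other direction. The causes were not tested. Some settings drop or replace the late V1 wells of mmu-miR-467a on card A and mmu-miR-467b on card B. With undetermined wells set to 40 cycles, these V1 wells keep their Ct and the undetermined F1 wells enter at 40. The difference in determined repeat-cluster assays, vitrified minus fresh, was −1.67 per pool, −2.0 with a limit of 35 cycles, and between −6.33 and 1.17 with a pool left out. It was not set against the same difference over all miRNA assays, whose counts per pool are given above.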
